A study of Mus musculus with 4 samples.

Results

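The serotonin receptor genes Htr1a, Htr1b, Htr1d, Htr1f, Htr2a, Htr2c, Htr3a, Htr4 and Htr7 were followed through single-nucleus RNA counts of mouse hippocampus. They were chosen by name, with earlier results of these data known, and are 9 of the 20211 gene symbols listed in all 4 libraries. Each library is 1 sample of a genotype. The wild type library is the reference. The other libraries are labelled as knockouts of monoacylglycerol lipase (MAGL, encoded by Mgll, an enzyme that degrades the endocannabinoid 2-arachidonoylglycerol): a total or global knockout, an astrocyte-specific knockout and a neuron-specific knockout. The sources used here name neither the driver of the cell-specific deletions nor the ages or the number of animals behind a library. With 1 library per genotype there was no replicate check and no test. All intervals below are exact 95% intervals for the counting of unique molecular identifiers (UMIs, 1 per captured RNA molecule) or nuclei, and cover counting error only.

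Serotonin reaches the hippocampus in fibres from the raphe nuclei of the brainstem, and its action on a cell depends on the receptors that the cell makes. The receptors of family 1 couple to inhibitory Gi/o proteins, and those of family 2 couple to Gq and phospholipase C. Htr4 and Htr7 encode receptors that raise cyclic AMP through Gs. Htr3a encodes a subunit of the only serotonin receptor family that is an ion channel. Most other serotonin receptors are single proteins with the transmembrane fold common to G protein-coupled receptors.

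After filters on genes and mitochondrial RNA, 59713 nuclei remained: 9301 in the wild type library, 30924 in the one labelled total knockout, 10653 in the one labelled astrocyte knockout and 8835 in the one labelled neuron knockout. Median depth ranged from 5492 UMIs per nucleus in the library labelled total knockout to 8938 in wild type. Nuclei were assigned to cell types by marker genes, and 24.2% met no definition. Markers of cells from outside the hippocampus proper were also found, among them cortical layer 6, thalamic and medium spiny neurons. The 1363 medium spiny neurons, the projection neurons of the striatum, included 1267 from the library labelled total knockout. That library also stood apart in its doublet calls, with 23.6% of nuclei called by Scrublet against 1.73% to 5.72% elsewhere. The expected doublet rate set for Scrublet was proportional to the barcodes of a library, 31243 there and 8945 to 10731 elsewhere. Sex differed too: that library held 25819 nuclei with male and 8 with female transcripts, whereas each of the others held 3592 to 4506 of either sex. Between 574 and 1252 cell barcodes per library also occurred in another library, and the number that independent libraries would share was not computed. Mgll did not separate the libraries by their labels: its level in all excitatory neurons was 103 CPM (UMIs of the gene scaled to a common library total, counts per 1e6) in wild type, 80.2 CPM in the library labelled total knockout, 109 CPM in the one labelled astrocyte knockout and 108 CPM in the one labelled neuron knockout. The sources used here do not say which exons the deletions remove, so counts over the whole gene cannot check the labels, and each library is named by its label.

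The 9 genes differ greatly in size, and in nuclei long introns contribute many UMIs. Htr1a (chr13:105443639-105448122 on mm10) is a single-exon gene, while Htr2c (chrX:146962513-147197277) spans 234765 bases, of which 3.97% are exonic in GENCODE M21. Totals ran from 304 UMIs for Htr1d and 1329 for Htr1a to 60824 for Htr1f, 63899 for Htr4 and 74005 for Htr2c. Per kilobase of gene the levels were closer. Over whole libraries, Htr1a lay between 0.591 and 0.747 CPM per kilobase, Htr1b between 0.629 and 0.837, Htr1f between 0.666 and 0.782, Htr4 between 0.775 and 0.914 and Htr2c between 0.475 and 0.955. Htr2a, Htr7 and Htr3a were lower on this scale, at 0.251 to 0.302, 0.221 to 0.304 and 0.175 to 0.435. Htr1d was lowest, at 0.0064 to 0.0603 CPM per kilobase. Every other level in the text is in CPM, not divided by length, and is compared between cell types or libraries within 1 gene.

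**Figure D1:**
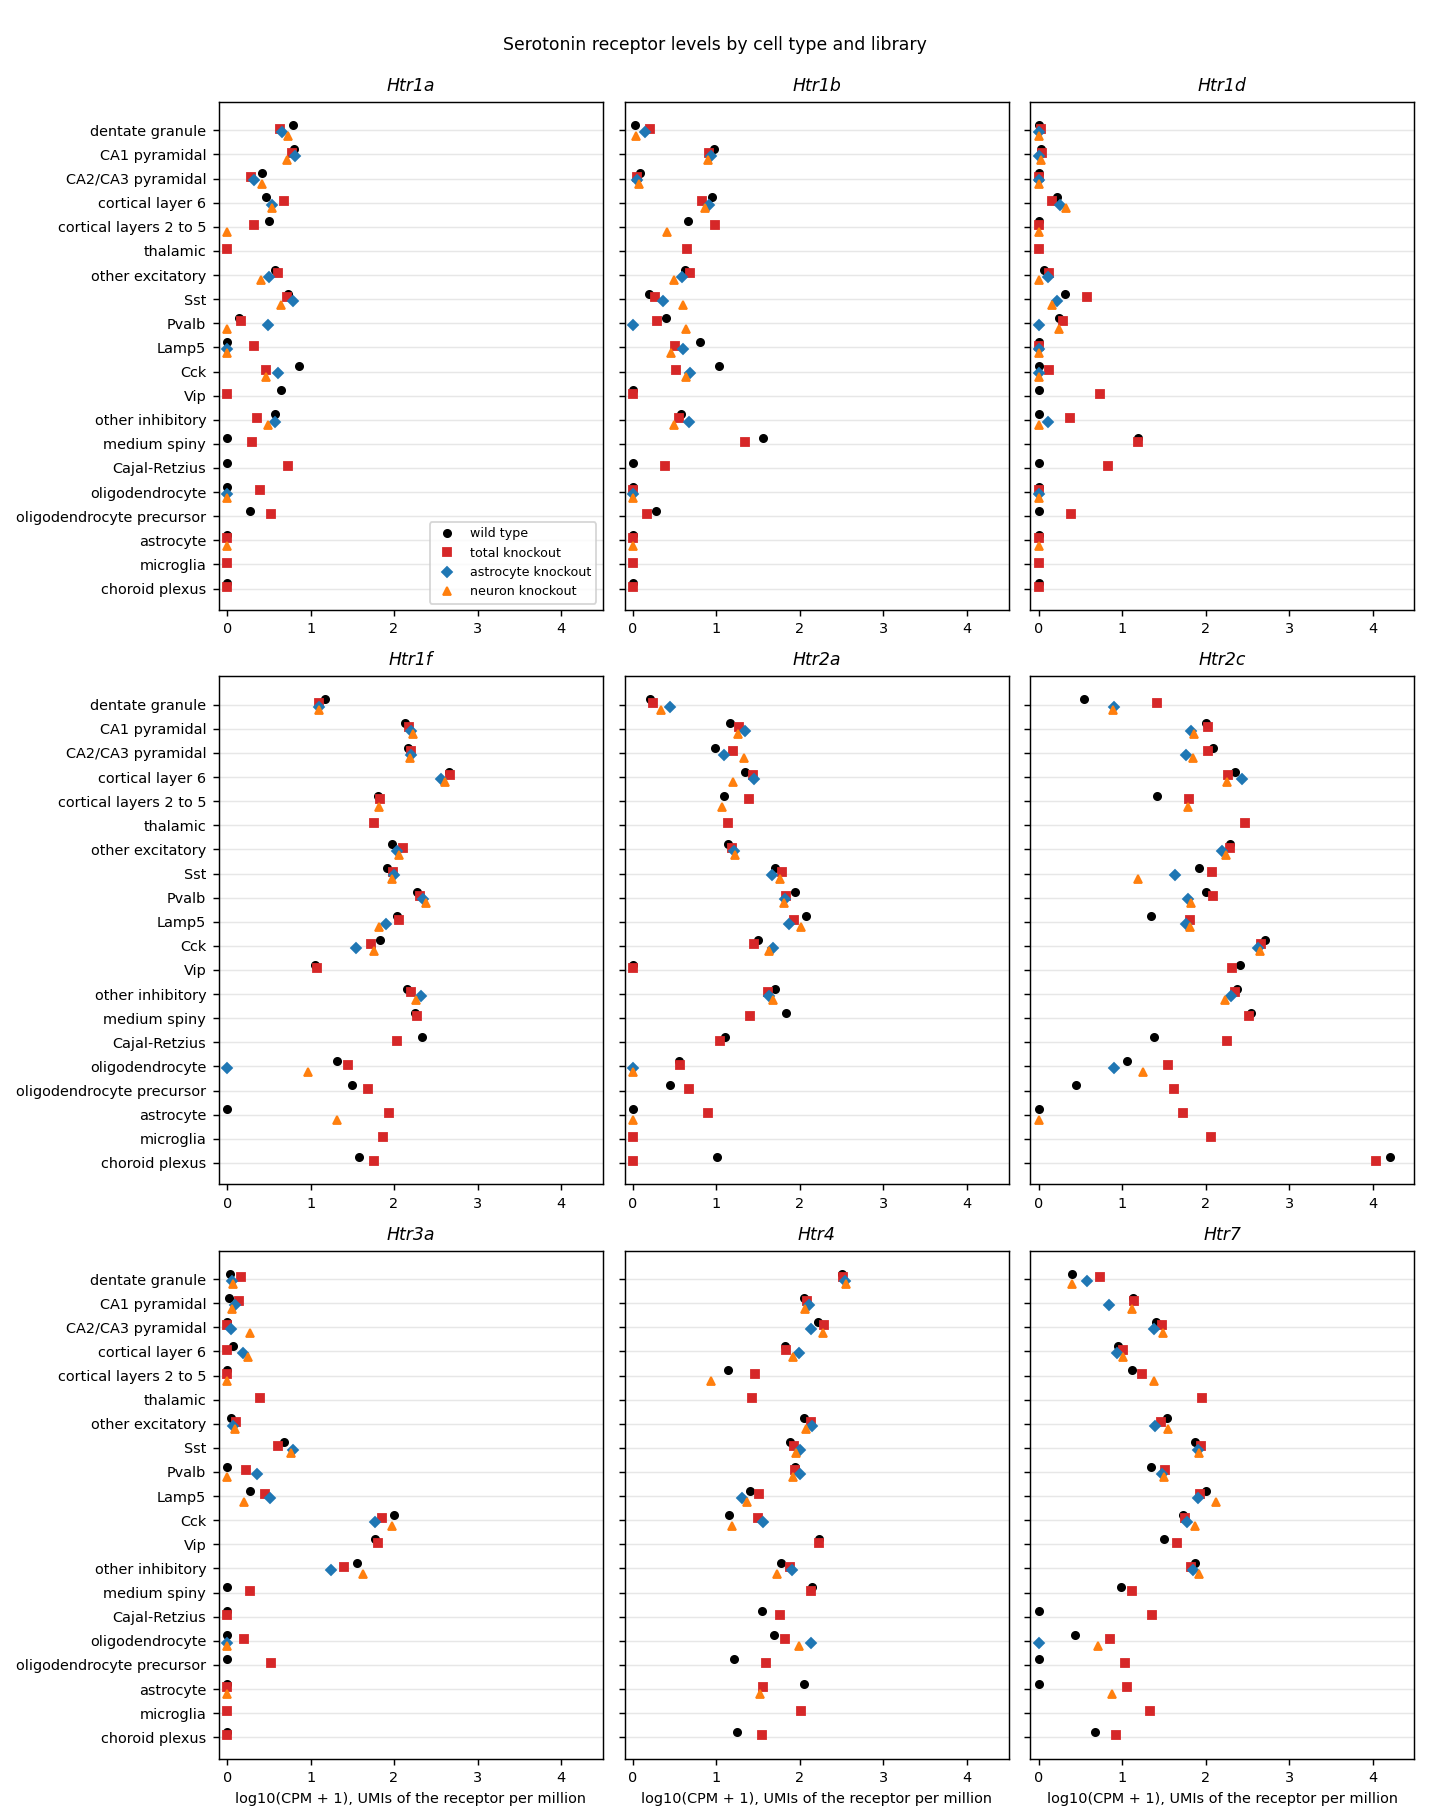
Level of each receptor, as log10(CPM + 1) on the x axis, in 20 cell types (rows) with at least 40 nuclei in a library; each symbol is 1 library. Htr2c in choroid plexus lies above every other value, Htr4 is highest in dentate granule cells and Htr1f in cortical layer 6, and Htr3a stays below 6 CPM outside Cck, Vip and other inhibitory neurons.

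Among the Gi/o-coupled receptors, Htr1a, the receptor through which serotonin hyperpolarises pyramidal cells, was sparse. In CA1 pyramidal neurons it reached 5.38 CPM in wild type (85 UMIs, interval 4.30 to 6.65), 4.98 CPM in the library labelled total knockout, 5.42 CPM in the one labelled astrocyte knockout and 4.26 CPM in the one labelled neuron knockout. Sst interneurons, at 3.46 to 5.19 CPM, and dentate granule cells, at 3.24 to 5.09 CPM, overlapped this range, so these cell types could not be ordered for Htr1a. CA2/CA3 pyramidal neurons were lower, at 0.941 to 1.62 CPM. Oligodendrocytes, the myelin-forming glia, served as a cell type not known for these receptors; they held 5 Htr1a UMIs in all, at a median depth of 1477 UMIs per nucleus. A finer partition into clusters, made from the 51320 nuclei that Scrublet did not call doublets, placed the highest Htr1a level in a group of 292 nuclei led by Cpa6 and Lef1, which carried no cell type name by its markers. Its level was 10.0 to 20.6 CPM over the 4 libraries, from 59 UMIs.

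Htr1b (chr9:81628291-81633828), a receptor known for its place on axon terminals, was highest in medium spiny neurons. It measured 35.1 CPM in wild type, from 12 UMIs in 41 nuclei (18.1 to 61.3), and 21.2 CPM in the library labelled total knockout, from 173 UMIs in 1267 nuclei (18.2 to 24.6). Within the hippocampus, CA1 and CA2/CA3 pyramidal neurons separated fully for this gene. CA1 neurons held 8.42 CPM in wild type, 7.22 CPM in the library labelled total knockout, 7.57 CPM in the one labelled astrocyte knockout and 6.87 CPM in the one labelled neuron knockout. In CA2/CA3 neurons there was 1 Htr1b UMI in each library, or 0.118 to 0.198 CPM. Dentate granule cells were as low, at 0.0687 to 0.615 CPM. Cortical layer 6 neurons, at 5.74 to 7.90 CPM, overlapped CA1. No Htr1b UMI was found in oligodendrocytes of any library, where 3 UMIs would correspond to 0.875 CPM in the largest group, the 1651 nuclei of the library labelled total knockout.

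Htr1d was highest in 2 groups of nuclei. Medium spiny neurons held 14.6 CPM in wild type, from 5 UMIs (4.74 to 34.1), and 14.5 CPM in the library labelled total knockout, from 118 UMIs. A cluster of 194 nuclei led by Ebf2, Ebf3 and Postn held 26.5 to 29.1 CPM in the 2 libraries with enough nuclei, from 22 UMIs. In the other gated cell types Htr1d stayed at or below 5.74 CPM, and in all excitatory neurons it was 0.128 to 0.204 CPM. Over whole libraries Htr1d was 0.367 CPM in wild type and 1.26 CPM in the library labelled total knockout, where medium spiny nuclei held 15.2% and 48.6% of its UMIs; they held none of the 12 UMIs of the library labelled astrocyte knockout and 6.25% of those of the one labelled neuron knockout. With those nuclei left out the levels in wild type and the library labelled total knockout were 0.313 and 0.676 CPM, a log2 ratio of 1.11 (0.51 to 1.76) against 1.78 (1.25 to 2.35) with them. The other libraries lay lower than wild type. Without those nuclei the log2 ratio was -1.22 (-2.33 to -0.20) in the one labelled astrocyte knockout. It was -0.76 (-1.77 to 0.19) in the one labelled neuron knockout. Only nuclei gated as medium spiny were left out, and the mix of the remaining cells was not matched. Unassigned nuclei stayed in. They were 16.5% of wild type nuclei and 28.7%, 21.1% and 20.5% in the libraries labelled total, astrocyte and neuron knockout.

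Htr1f (chr16:64924729-65105854), a receptor that responds to triptans, was the most abundant receptor of family 1 in UMIs and was highest in neurons of cortical layer 6. There it measured 456 CPM in wild type (440 to 473), 462 CPM in the library labelled total knockout, 368 CPM in the one labelled astrocyte knockout and 409 CPM in the one labelled neuron knockout. A UMI of the gene was found in 75.1% to 84.2% of these nuclei, and in 29.0% to 36.1% after each nucleus was thinned to 1000 UMIs. In oligodendrocytes the share was 0% to 2.99%, and 0% to 0.788% after thinning. Parvalbumin interneurons came next, at 185 to 242 CPM, below every layer 6 value and above every value of CA1 (135 to 167 CPM) and CA2/CA3 (145 to 159 CPM) neurons. Dentate granule cells carried the gene in 1.09% to 1.27% of thinned nuclei. By clusters, 719 nuclei led by Fn1 and Nts, with no cell type name, held 473 to 556 CPM and overlapped the layer 6 cluster at 464 to 593 CPM.

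The Gq-coupled receptors of family 2 had different homes. Htr2a (chr14:74640840-74709494), the target of classical psychedelics, was at its highest levels in interneurons, although excitatory nuclei held 40.5% to 55.1% of its UMIs. Its level in all inhibitory neurons was 62.8 CPM in wild type, 50.3 CPM in the library labelled total knockout, 52.4 CPM in the one labelled astrocyte knockout and 58.4 CPM in the one labelled neuron knockout, against 10.7 to 14.3 CPM in all excitatory neurons. The 2 ranges did not overlap. Lamp5 interneurons, which include neurogliaform cells, were highest at 117, 83.2, 73.9 and 102 CPM in the same order of libraries. Parvalbumin interneurons, at 64.2 to 85.4 CPM, overlapped them, and Sst interneurons, at 44.8 to 59.2 CPM, lay below both. Outside the interneurons, medium spiny nuclei of wild type held 1.48% of its Htr2a UMIs (23 UMIs in 41 nuclei) with 0.381% of all its UMIs. In the library labelled total knockout these shares were 5.49% and 4.23%. In the finer partition a cluster of 403 Lamp5 nuclei led by Egfr and Ndnf held 111 to 154 CPM, above the other Lamp5 cluster, led by Hapln1, at 64.0 to 78.3 CPM. Vip interneurons had no Htr2a UMI in the gated nuclei of wild type or the library labelled total knockout, and 4 UMIs, all in 1 of 22 nuclei, in the one labelled neuron knockout. Dentate granule cells carried an Htr2a UMI in 0.0749% to 0.181% of thinned nuclei.

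Htr2c was dominated by the choroid plexus, the epithelium that secretes cerebrospinal fluid and is known for dense 5-HT2C receptor. Wild type choroid nuclei held 16121 CPM, from 8731 UMIs in 105 nuclei, with a UMI of the gene in 97.1% of them. The 70 choroid nuclei of the library labelled total knockout held 10932 CPM (10539 to 11335). Of these 70, Scrublet called 67 doublets, so that they are not in the clusters; the remaining 3 had no Htr2c UMI. Ttr, a defining gene of this epithelium, was found in 100% of the choroid nuclei of both libraries, at 89991 CPM in wild type and 35764 CPM in the library labelled total knockout. The excitatory marker Slc17a7 was found in 6.67% and 21.4% of them, at 33.2 and 67.3 CPM. The inhibitory marker Gad1 was found in 3.81% and 8.57%, at 9.23 and 22.4 CPM. The oligodendrocyte marker Mbp went the other way, found in 38.1% and 14.3%, at 144 and 105 CPM. What part doublets have in the lower Htr2c level was not tested. The library labelled astrocyte knockout had 7 choroid nuclei and the one labelled neuron knockout had 1, so no level is given for them.

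The unequal number of choroid nuclei weighed on the level of Htr2c in the whole tissue. Over all nuclei Htr2c was 224 CPM in wild type, 178 CPM in the library labelled total knockout, 115 CPM in the one labelled astrocyte knockout and 112 CPM in the one labelled neuron knockout, a log2 ratio of -0.96 (-0.99 to -0.92) and -1.01 (-1.04 to -0.97) for the last 2. Choroid nuclei made up 1.13% of wild type nuclei and held 43.4% of the Htr2c UMIs there, against 8.5%, 0.357% and 0.638% in the other libraries. Without the choroid nuclei the levels were 128, 163, 115 and 111 CPM. The log2 ratios then were 0.35 (0.32 to 0.38), -0.15 (-0.19 to -0.11) and -0.20 (-0.24 to -0.16), all inside 1.5-fold, and the first had changed direction from -0.33 (-0.36 to -0.31). The mix of the remaining nuclei was not matched between libraries. Medium spiny nuclei, also high in Htr2c, were 0.441% of wild type nuclei and 4.10%, 0.319% and 0.238% in the other libraries. Their part in these ratios was not tested.

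Among the gated neurons, Htr2c was highest in Cck interneurons, a class that also carries cannabinoid receptor on its terminals. These held 506 CPM in wild type (466 to 550), 453 CPM in the library labelled total knockout, 427 CPM in the one labelled astrocyte knockout and 445 CPM in the one labelled neuron knockout. Medium spiny neurons followed at 327 to 351 CPM, thalamic neurons at 294 CPM in the 1 library with enough of them, and Vip interneurons at 207 to 255 CPM. Cortical layer 6 neurons held 176 to 267 CPM, but only 20.8% to 29.2% of them carried a UMI, compared with 51.4% to 57.4% of Cck nuclei. In the finer partition, 3 clusters with no cell type name exceeded or overlapped the Cck cluster (376 to 429 CPM). One led by Ankfn1 and Foxp2 held 584 to 1047 CPM, one led by Sntb1 held 485 to 718 CPM, and one led by Cxcl14 and Tshz2 held 423 to 608 CPM. A cluster led by Vgll3, named mossy cell from its markers, held 389 to 562 CPM. The gated dentate granule cells were at the low end, at 2.47 to 25.1 CPM. That range overlapped Sst interneurons (14.3 CPM in the library labelled neuron knockout) and Lamp5 interneurons (21.3 CPM in wild type).

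**Figure D2:**
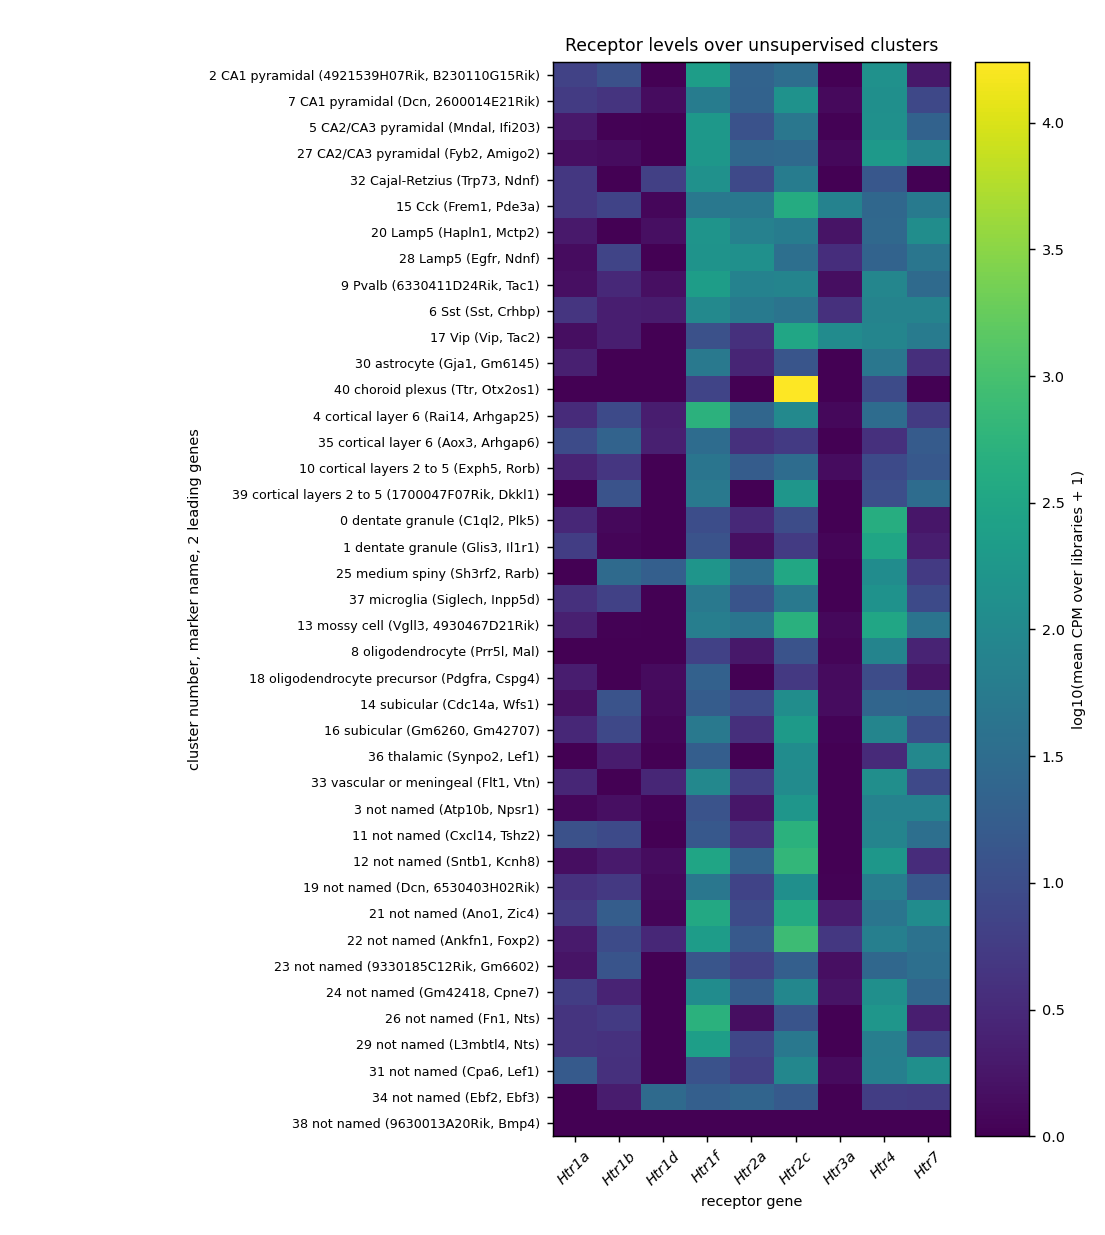
Colour gives log10(mean CPM over libraries + 1) of each receptor (columns) in each unsupervised cluster (rows) with at least 40 nuclei in a library; rows give the cluster number, its name from markers and its 2 leading genes. Htr3a stands out in the Cck and Vip rows, Htr1d in the medium spiny row and the row led by Ebf2, and Htr2c in choroid plexus has the highest value shown.

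Htr3a (chr9:48899213-48911099), the ion channel subunit, marked a restricted set of interneurons. In Cck interneurons it measured 97.6 CPM in wild type (80.3 to 118), 69.6 CPM in the library labelled total knockout, 58.6 CPM in the one labelled astrocyte knockout and 93.3 CPM in the one labelled neuron knockout. Vip interneurons held 57.8 CPM in wild type and 63.8 CPM in the library labelled total knockout, the first below the lowest Cck value and the second inside the Cck range, and the remaining inhibitory neurons held 16.7 to 41.9 CPM. Sst interneurons were the next, at 3.09 to 5.19 CPM, and no other cell type had a mean above 1.5 CPM. All excitatory neurons together gave 0.0801 to 0.312 CPM. Between 73.0% and 90.3% of all Htr3a UMIs lay in inhibitory nuclei, which were 11.1% to 14.8% of nuclei. In the clusters the order of the leading pair was the other way round, with 87.1 to 157 CPM in the Vip cluster and 50.7 to 83.5 CPM in the Cck cluster.

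The Gs-coupled receptors divided between principal cells and interneurons. Htr4 was highest in dentate granule cells, the first relay of the hippocampal circuit. It measured 317 CPM in wild type (308 to 326), 323 CPM in the library labelled total knockout, 349 CPM in the one labelled astrocyte knockout and 357 CPM in the one labelled neuron knockout. A UMI was found in 73.2% to 84.6% of granule nuclei, and in 26.5% to 29.5% after thinning to 1000 UMIs. CA2/CA3 neurons followed at 135 to 193 CPM and did not reach the granule range; CA1 neurons held 112 to 128 CPM. The 2 granule clusters differed without overlap, the one led by C1ql2 at 417 to 471 CPM and the one led by Glis3 at 290 to 328 CPM. Lamp5 and Cck interneurons were at the low end, the latter at 13.2 to 35.0 CPM. Oligodendrocytes gave 48.4 to 133 CPM of Htr4, with a UMI in 1.59% to 5.13% of thinned nuclei, against 0.99% to 2.24% of thinned Cck nuclei. Cortical layer 6 and CA1 neurons also lay inside the oligodendrocyte range in CPM. Their thinned shares were 4.87% to 7.85% and 9.94% to 11.8%, so that layer 6 overlapped oligodendrocytes on both scales and CA1 in CPM alone. The oligodendrocyte ranges include libraries with few such nuclei. There were 381 in wild type, 1651 in the library labelled total knockout, and 45 and 67 in the ones labelled astrocyte and neuron knockout.

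Htr7 (chr19:35958734-36057507) was likewise at its highest levels in interneurons, with 36.3% to 52.2% of its UMIs in excitatory nuclei. Lamp5 interneurons held 99.6 CPM in wild type (82.0 to 120), 84.3 CPM in the library labelled total knockout, 79.8 CPM in the one labelled astrocyte knockout and 131 CPM in the one labelled neuron knockout. Sst interneurons, at 74.2 to 86.1 CPM, overlapped them, and so did thalamic neurons, at 87.9 CPM in 1 library. Over whole classes, inhibitory neurons held 59.0 to 75.5 CPM and excitatory neurons 13.7 to 18.7 CPM, with no overlap. Parvalbumin interneurons, at 20.8 to 31.1 CPM, were lower than the other interneurons except Vip cells and overlapped CA2/CA3 neurons, at 22.9 to 29.5 CPM. In the clusters, the 292 nuclei led by Cpa6 and Lef1 that were highest for Htr1a were also highest for Htr7, at 105 to 149 CPM. CA2/CA3 nuclei of a cluster led by Fyb2 and Amigo2, genes that mark CA2, held 74.5 to 90.2 CPM.

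The receptors were next compared between each knockout-labelled library and wild type, within cell types that had at least 50 nuclei in both and for receptors with at least 100 UMIs between them. A pair of receptor and cell type was counted when the CPM differed by at least 1.5-fold. In the library labelled total knockout 8 of 63 pairs were past this fold, 7 higher and 1 lower, against 7.43% of all pairs of gene and cell type (3.38% higher and 4.05% lower). With Scrublet calls removed, 6 of 52 were past it there, 3 higher and 3 lower. For the library labelled astrocyte knockout 12 of 50 were past it, 4 higher and 8 lower, against 5.27% (1.72% and 3.55%). For the library labelled neuron knockout 7 of 51 were past it, 3 higher and 4 lower, against 5.59% (1.83% and 3.75%). The pairs of all genes met the same minimum of 100 UMIs but were not matched to the receptor pairs in depth. Sparse pairs pass the fold more often by counting error, so these shares do not rank the receptors against other genes. Alternative values of single ratios given below, by clusters, after thinning, with 4 markers, with TMM scaling or in male nuclei, have 1 UMI added to each sum, as the 1.5-fold rule does. Values by clusters also leave out the Scrublet calls. Values after thinning rest on fewer UMIs than the main ratios, and no minimum was set on the thinned UMIs. The median log2 ratio over the receptor pairs was 0.11, -0.08 and 0.08. Over all excitatory neurons together, none of the 7 receptors with enough UMIs passed the fold in any library, where 7.37%, 5.82% and 4.61% of all genes did. Over all inhibitory neurons 1 of 6 did in the library labelled astrocyte knockout (background 4.51%), and none in the others (7.77% and 5.57%). The 3 comparisons share the wild type library.

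**Figure D3:**
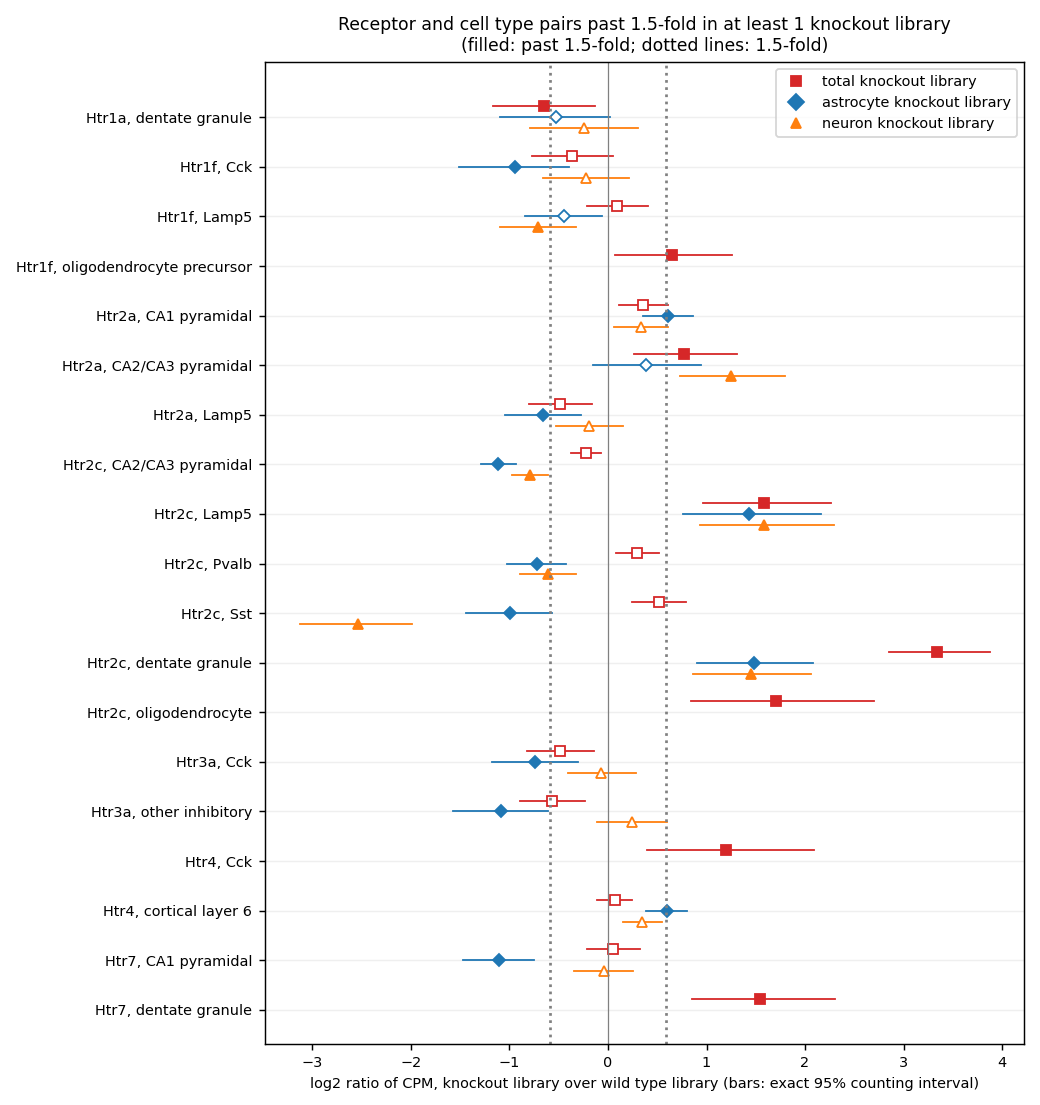
Each row is a receptor and cell type past 1.5-fold in at least 1 library; the x axis gives the log2 ratio of CPM to wild type with its exact 95% counting interval, and filled symbols are past 1.5-fold. Htr2c in dentate granule cells and in Lamp5 interneurons lies to the right of 0 in all 3 libraries, and Htr2c in Sst interneurons of the library labelled neuron knockout lies farthest to the left.

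Htr2c accounted for 13 of these 27 differences. In dentate granule cells it was low in wild type, at 2.47 CPM (36 UMIs), and higher in the other libraries, at 25.1 CPM (449 UMIs) in the one labelled total knockout, 6.89 CPM (88 UMIs) in the one labelled astrocyte knockout and 6.77 CPM (77 UMIs) in the one labelled neuron knockout. The log2 ratios were 3.34 (2.85 to 3.88), 1.48 (0.90 to 2.08) and 1.45 (0.86 to 2.06). In the library labelled total knockout 85.5% of the UMIs lay in the 437 granule nuclei called by Scrublet. The share in called nuclei was 22.2% in wild type, 40.9% in the library labelled astrocyte knockout and 3.9% in the one labelled neuron knockout. Without called nuclei the levels were 1.96, 4.76, 4.43 and 6.65 CPM, with wild type first and the others in the order given above. By clusters the 3 log2 ratios were 0.76, 1.05 and 1.17. After thinning to 1000 UMIs they were 1.58, 0.41 and 0.26, the last 2 inside 1.5-fold. The 5 granule nuclei with the most UMIs held 36.1% of them in wild type and 14.3%, 31.8% and 68.8% in the other libraries.

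In Lamp5 interneurons Htr2c was also higher in all 3 libraries, from 21.3 CPM in wild type to 63.8, 57.6 and 64.1 CPM. The wild type value rested on 24 UMIs in 13 nuclei, and the others on 177, 78 and 106 UMIs in 73, 21 and 27 nuclei. The top 5 nuclei held 62.5% of the UMIs in wild type and 23.2%, 62.8% and 61.3% in the other libraries. The log2 ratios were 1.58 (0.96 to 2.26), 1.43 (0.76 to 2.16) and 1.59 (0.94 to 2.29). Without doublet calls the levels were 21.8, 45.5, 56.0 and 63.6 CPM, by clusters the log2 ratios were 0.87, 0.26 and 0.38, and after thinning 0.93, 0.47 and 0.33, the last 2 inside 1.5-fold in both.

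In the Sst, parvalbumin and CA2/CA3 cell types Htr2c was lower in the libraries labelled astrocyte and neuron knockout and was not past the fold in the one labelled total knockout. Sst interneurons held 82.9 CPM in wild type, 119 CPM in the library labelled total knockout, 41.5 CPM in the one labelled astrocyte knockout and 14.3 CPM in the one labelled neuron knockout, log2 ratios of 0.52, -1.0 and -2.54 (-3.13 to -1.99 for the last). In wild type 5 nuclei held 68.0% of the 153 UMIs, and in the other libraries 5 nuclei held 25.1%, 84.4% and 81.8% of 423, 64 and 33 UMIs. Parvalbumin interneurons held 99.5, 122, 60.4 and 65.3 CPM in the same order, from 268, 526, 145 and 175 UMIs. There 5 nuclei held 27.2%, 19.4%, 59.3% and 44.6% of them. The log2 ratios were 0.30, -0.72 and -0.61. With a minimum of 4 markers the last 2 were -0.25 and -0.49, and with TMM scaling the last was -0.56, all inside 1.5-fold. CA2/CA3 neurons held 122 CPM in wild type (613 UMIs) and 104, 56.3 and 70.2 CPM in the other libraries, with log2 ratios of -1.11 (-1.29 to -0.93) and -0.79 (-0.98 to -0.61) in the last 2. For the library labelled neuron knockout the CA2/CA3 ratio was -0.52 by clusters and -0.48 with 4 markers, inside 1.5-fold. In Cck interneurons, where Htr2c was highest among the gated neuron types, the log2 ratios were -0.16, -0.25 and -0.19, none past 1.5-fold. Htr2c is X-linked, and the library labelled total knockout held 8 nuclei with female and 25819 with male transcripts. The others held both sexes in similar numbers. Female and male nuclei were 4319 and 3803 in wild type, 4506 and 4316 in the library labelled astrocyte knockout, and 3592 and 4092 in the one labelled neuron knockout. Among male nuclei alone the log2 ratio in CA2/CA3 neurons was -0.56 in the library labelled astrocyte knockout and 0.01 in the one labelled neuron knockout, and that in parvalbumin interneurons was 0.42 and -0.19. These values are inside 1.5-fold, and the part of sex in these values was not tested.

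**Figure D4:**
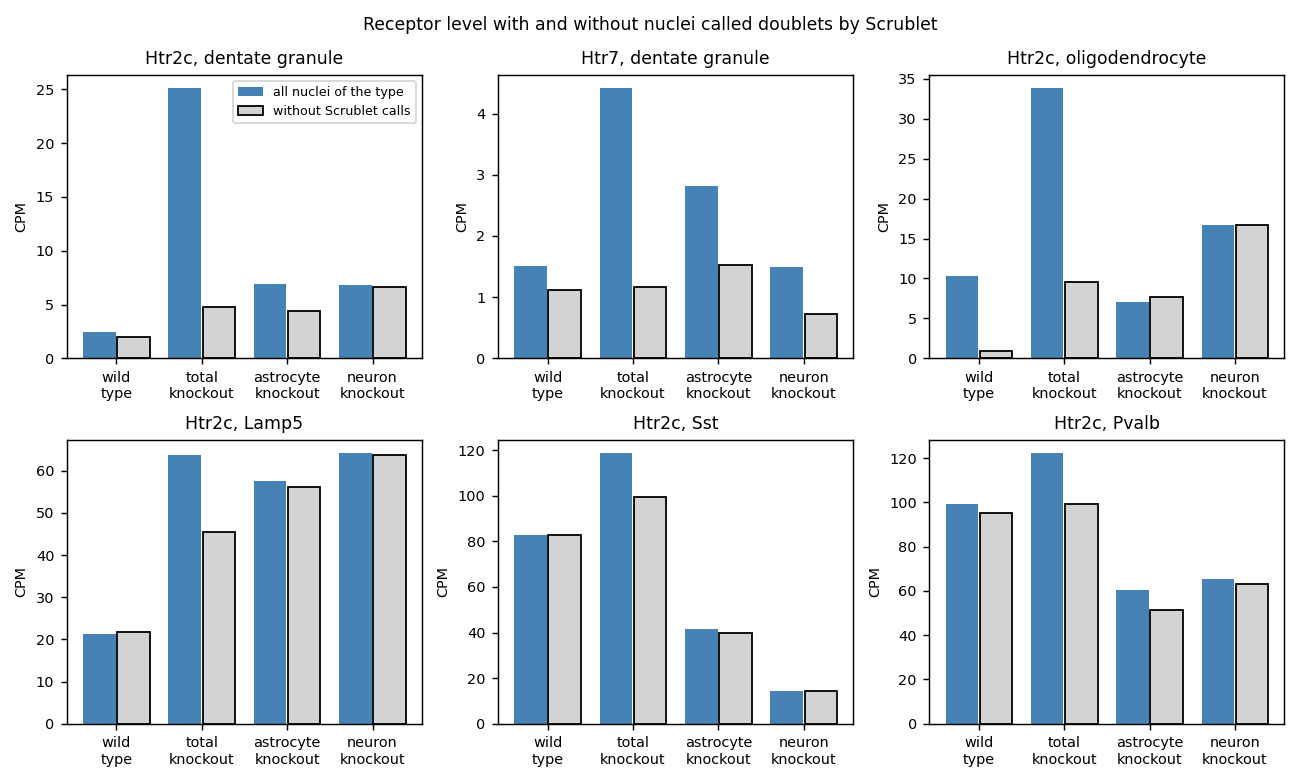
Bars give the CPM of Htr2c or Htr7 in 6 receptor and cell type pairs in each library, with all nuclei of the type (blue) and without nuclei called doublets by Scrublet (grey); the y axes start at 0. In dentate granule cells of the library labelled total knockout Htr2c drops from 25.1 to 4.76 CPM and Htr7 from 4.42 to 1.17 CPM, while in Sst neurons of wild type it is 82.9 with and 82.8 without those nuclei.

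The other differences in the library labelled total knockout were of low levels. Htr7 in dentate granule cells was 4.42 CPM against 1.51 CPM in wild type, a log2 ratio of 1.55 (0.85 to 2.30), but 79.7% of its UMIs lay in nuclei called doublets and the levels without them were 1.17 and 1.12 CPM. Htr2c in oligodendrocytes was 33.8 CPM against 10.4 CPM, and 9.61 against 0.96 CPM, the latter from 1 UMI, without called nuclei. Htr1f in oligodendrocyte precursors was 47.1 against 30.0 CPM, and 17.7 against 21.0 CPM without them; its log2 ratio was 0.50 with 4 markers and 0.36 after thinning. Htr4 in Cck interneurons was 30.2 against 13.2 CPM, both below the oligodendrocyte levels given above, with a log2 ratio of 0.47 after thinning. Htr2a in CA2/CA3 neurons was 14.6 against 8.52 CPM, a log2 ratio of 0.78 (0.26 to 1.31), but by clusters it was -0.28, with 4 markers 0.42 and after thinning 0.30. Without called nuclei its levels were 15.6 against 8.24 CPM. The single receptor on the lower side was Htr1a in dentate granule cells, at 3.24 against 5.09 CPM, a log2 ratio of -0.65 (-1.17 to -0.13), and its level without called nuclei was 3.44 against 5.18 CPM, inside 1.5-fold once 1 UMI was added to each sum (-0.58). That ratio was -0.37 with 4 markers and -0.52 after thinning.

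Htr3a was lower in the library labelled astrocyte knockout in Cck and in the remaining inhibitory neurons. Cck interneurons held 58.6 against 97.6 CPM in wild type, a log2 ratio of -0.74 (-1.18 to -0.30). The remaining inhibitory neurons held 16.7 against 35.4 CPM, a log2 ratio of -1.09 (-1.58 to -0.61), and -0.31 after thinning. Over all inhibitory neurons the levels were 24.3 CPM in wild type, 20.8 CPM in the library labelled total knockout, 14.9 CPM in the one labelled astrocyte knockout and 29.8 CPM in the one labelled neuron knockout. That class pools several interneuron types: the library labelled astrocyte knockout had 145 Cck and 21 Vip nuclei, and wild type had 101 and 48. Cck nuclei also held less Htr1f there, 34.2 against 65.9 CPM, a log2 ratio of -0.95 (-1.51 to -0.39), from 45 and 75 UMIs. The 5 nuclei with the most UMIs held 71.1% and 50.7% of them. Htr2a was lower in Lamp5 interneurons, at 73.9 against 117 CPM, and slightly higher in CA1 neurons, at 20.7 against 13.5 CPM, log2 ratios of -0.66 and 0.61. By clusters these were -0.44 and 0.54, and with 4 markers -0.56 and 0.57, inside 1.5-fold. The CA1 ratio was 0.13 after thinning and 0.34 among male nuclei. Htr7 in CA1 neurons was 5.84 against 12.5 CPM, a log2 ratio of -1.10 (-1.47 to -0.75), while the libraries labelled total and neuron knockout held 13.0 and 12.1 CPM. Htr4 in layer 6 neurons was 97.7 against 64.6 CPM, a log2 ratio of 0.60 (0.39 to 0.80), and 0.37 among male nuclei. Both levels lie inside the range of oligodendrocytes given above.

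The remaining differences in the library labelled neuron knockout were Htr2a in CA2/CA3 neurons, at 20.3 against 8.52 CPM, and Htr1f in Lamp5 interneurons, at 65.3 against 107 CPM. The log2 ratios were 1.25 (0.73 to 1.79) and -0.71 (-1.10 to -0.32). The wild type value of Htr2a rested on 43 UMIs, 24 of them in 5 nuclei, and that of the library labelled neuron knockout on 113, 39 of them in 5 nuclei. By clusters the log2 ratio in CA2/CA3 neurons was 0.01, and after thinning it was 0.06. That of Htr1f in Lamp5 interneurons was -0.34 by clusters and -0.58 with 4 markers, inside 1.5-fold.

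The following levels stayed inside 1.5-fold in each library compared. Htr4 in dentate granule cells had log2 ratios of 0.03, 0.14 and 0.17, and Htr1f in layer 6 neurons had 0.02, -0.31 and -0.16, in the libraries labelled total, astrocyte and neuron knockout. Htr7 in Lamp5 interneurons had -0.24, -0.32 and 0.39. Htr1a in CA1 neurons had -0.11 (-0.54 to 0.32), 0.01 (-0.43 to 0.45) and -0.34 (-0.83 to 0.15), and Htr1b in the same neurons had -0.22, -0.15 and -0.29. For Htr1b in medium spiny neurons, where it was highest, the 41 wild type nuclei were too few for a ratio by the rule. Htr2c in choroid plexus of the library labelled total knockout had -0.56 (-0.62 to -0.50), also inside 1.5-fold, in a cell type where 22.6% of genes were past it and where 67 of the 70 nuclei were doublet calls.

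Of 13 other genes of serotonin signalling, 9 were listed in all libraries. Htr2b, the remaining Gq-coupled receptor of family 2, had 2005 UMIs and was spread over cell types, at 3.89 to 9.21 CPM in Sst interneurons. In the library labelled total knockout it was past the fold in all excitatory neurons, at 3.20 against 6.01 CPM, a log2 ratio of -0.91 (-1.13 to -0.69), and in all inhibitory neurons, at 3.88 against 5.99 CPM, a log2 ratio of -0.63 (-1.10 to -0.14). Htr5b, a receptor gene that is intact in mouse, was highest in CA1 neurons at 8.48 to 10.5 CPM, above the 2.30 to 3.32 CPM of other excitatory neurons. Htr6, a Gs-coupled receptor, was highest in CA2/CA3 neurons at 5.29 to 8.13 CPM, overlapping astrocytes (0 to 10.4 CPM, 5 UMIs) and medium spiny neurons (2.92 to 6.37 CPM), and Htr5a in neurons of cortical layers 2 to 5 at 5.43 to 9.12 CPM, overlapping Lamp5 interneurons at 5.05 to 9.60 CPM. Maoa, which breaks serotonin down, led in astrocytes at 45.2 to 71.3 CPM, from 44 UMIs, overlapping Cajal-Retzius cells at 34.5 to 45.9 CPM, and Maob led in choroid plexus at 157 to 273 CPM. Ddc, the decarboxylase of serotonin and dopamine synthesis, was highest in oligodendrocytes, at 46.1 to 138 CPM, which held 261 of its 763 UMIs. It was 0.925 CPM in all excitatory neurons of the library labelled total knockout against 0.320 CPM in wild type. Nuclei called by Scrublet were kept, 23.6% and 3.57% of all nuclei in these libraries. No level of Ddc without them is given. Tph2, the neuronal rate-limiting enzyme of serotonin synthesis, had 204 UMIs in all, and Slc18a2, the vesicular monoamine transporter, had 2249.

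A list of 27 transducers that act below these receptors (G proteins, adenylyl cyclases, phospholipases C, inward rectifiers and partners) was counted in the same way. In all excitatory neurons 26 had enough UMIs: none passed 1.5-fold in the libraries labelled total and neuron knockout, and 2 were lower and none higher in the one labelled astrocyte knockout, where 5.82% of all genes were past the fold. Those were Adcy8, a calcium-stimulated adenylyl cyclase, at 114 against 188 CPM, and Plcb4, a phospholipase C, at 24.8 against 39.2 CPM. In all inhibitory neurons none of 24 passed in any library, where 7.77%, 4.51% and 5.57% of all genes did. In single cell types of the library labelled total knockout, 7 of 21 passed in oligodendrocyte precursors (10.3% of all genes), 4 of 21 in oligodendrocytes (9.46%), 4 of 18 in cortical layers 2 to 5 (9.92%), 3 of 22 in CA2/CA3 neurons (5.67%) and 2 of 7 in choroid plexus (22.6%). In the one labelled neuron knockout 5 of 12 passed in oligodendrocytes (22.1%), and in the one labelled astrocyte knockout 3 of 24 passed in CA1 neurons (4.54%), all lower. Each other cell type and library had 0 to 2 past the fold. The median log2 ratio of the list in all excitatory neurons was 0.02, -0.08 and -0.02, beside -0.04, -0.06 and -0.02 over all genes with enough UMIs.

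Genes with the most similar profiles were sought among 13192 genes over 58 points, each a cell type in a library, which share libraries and depth. Frmpd3 was closest to Htr7 (Pearson r of log2(CPM + 1), 0.90), Nmt2 and Elavl2 to Htr2a (0.85 and 0.85), Epha7 to Htr4 (0.84), Npffr1 to Htr3a (0.83) and Man2a1 to Htr1f (0.80). Htr2c was closest to Wdr78 and Rpgr (0.80 and 0.79) over all points, but to Cep126 and Vsnl1 (0.82 and 0.81) over the 56 points without choroid plexus. The remaining receptors had weaker matches, Htr1b with D430036J16Rik (0.77), Htr1a with Dip2c (0.68) and Htr1d with 9330154J02Rik (0.60).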

How the data were processed

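RNA was counted in nuclei of mouse hippocampus with a droplet kit, 1 library per genotype. The authors deposited filtered matrices of raw counts (UMIs per gene and barcode). They were made with Cell Ranger ARC 2.0.0 on mm10, per the submitters' processing notes. From these counts, nuclei with at least 500 genes and at most 5% mitochondrial UMIs were kept. A nucleus was assigned to 1 of 26 marker lists (201 of 205 markers found) when at least 3 markers were present and the list scored at least 1.5 times the next. In all, 37.4% of CA1 and 69.0% of Cck nuclei lay near a cut. Near meant exactly 3 markers or a score under 2 times the next list, at the broad or the finer step of the assignment. Doublets were called with Scrublet in scanpy 1.11.5, at an expected rate proportional to the barcodes of each library. Called nuclei were kept, because the calls took 67 of 70 choroid nuclei of 1 library. Counts were summed per library and type and given as CPM, from library types of at least 40 nuclei. The 1.5-fold rule used 1 UMI added to each sum. Shares were thinned to 1000 UMIs per nucleus. Depth was 81623644 to 193307038 UMIs per library. Leiden clusters were made without Scrublet calls and without the receptor genes. Alternatives were these clusters, 4 markers, Scrublet removal, thinning, TMM factors (edgeR 4.0.16), 20 UMIs, male nuclei, 2-fold and each library left out. The ratio code was tested on simulated data. The receptors named are the 9 members; other serotonin genes are named from 100 UMIs. For the signalling list the genes past 1.5-fold in the pooled classes are named. Members and lists were chosen with earlier results of these data known. Counts were made with no strand detail given in the sources used here.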

Additional observations from a re-analysis of the deposited data

How the results depend on the processing

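The cell type with the highest level stayed the same for 9 receptors when Scrublet calls were removed or nuclei were thinned, for 8 over named clusters (Htr3a moved from Cck to Vip interneurons), for 5 over all clusters (Htr1a, Htr1d and Htr7 then led in clusters with no name), for 8 with 4 markers (Htr1a moved from CA1 to Sst), and for 8 to 9 when a library was left out (without the one labelled neuron knockout, Htr7 was 87.93 CPM in thalamic and 87.91 CPM in Lamp5 neurons). Counts past 1.5-fold moved more. In the library labelled total knockout, 8 of 63 pairs became 3 of 56 with 4 markers, 20 of 79 with a minimum of 20 UMIs and 5 of 63 at 2-fold. After thinning the count was 16 of 63, with 4 of the 8 kept. In the one labelled astrocyte knockout, 12 of 50 became 3 of 31 among male nuclei and 5 of 50 at 2-fold. After thinning the count was 18 of 50, with 8 of the 12 kept. In the one labelled neuron knockout, 7 of 51 became 3 of 48 with 4 markers, 14 of 67 with 20 UMIs and 2 of 34 among male nuclei. The count was 4 of 51 at 2-fold and 18 of 51 after thinning, with 4 of the 7 kept in each. The share over all pairs of gene and cell type was not computed at these settings. Of the 12 pairs in the astrocyte-labelled comparison, 4 could be measured in male nuclei and 0 were past the fold there. Of the 8 in the total knockout-labelled comparison, 4 could be measured in male nuclei and all 4 were past it. Over all pairs 10 of 47 were past it there, 9 higher and 1 lower. Of 127 recomputed ratios, 90 stayed inside the counting interval of the reported ratio, 34 left it with the same direction (15 of 27 after thinning), and 3 changed direction: Htr2a in CA2/CA3 neurons of the library labelled total knockout by clusters (-0.28), and among male nuclei Htr2c in parvalbumin interneurons of the one labelled astrocyte knockout (0.42) and in CA2/CA3 neurons of the one labelled neuron knockout (0.012). The cause was not tested. TMM scaling moved none of the 27 ratios in direction, but 1 of the 7 pairs in the library labelled neuron knockout fell inside 1.5-fold (Htr2c in parvalbumin interneurons, -0.56) and 8 became 10 in the one labelled total knockout. No paired analysis was possible because each genotype has 1 library. Depth limits which ratios could be given, since each reported ratio needed 100 UMIs. For thinned ratios this minimum applied before thinning only, so they and their counts past the fold carry more counting error. With Scrublet calls removed, 3 of the 8 pairs of the library labelled total knockout still had enough UMIs and nuclei, and 2 of these were past the fold. The split of all pairs past it was then 3 higher and 3 lower there, and 2 and 9 in the one labelled astrocyte knockout.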
